A study of Mus musculus with 12 samples.

Results

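The molecular clock genes described here are Per1, Per2, Per3, Cry1, Cry2, Arntl, Clock, Nr1d1, Nr1d2 and Dbp, 10 of the 31053 genes counted in single nuclei of mouse motor cortex. They were taken as a list of named genes, chosen with earlier results of these data known. Nuclei came from the caudal forelimb area of the right primary motor cortex of 13-week-old mice, cut as slices of 400 µm. In the trained group (mice 2, 4 and 6) the mice had 10 days on 1 mL of water a day and were then head-fixed on days 11 to 13 to press a lever with the left paw for water, in sessions of 100 trials, with the rest of their water given at home. In the control group (mice 1, 3 and 5) the mice had the same 10 days of water restriction and stayed on 1 mL a day in the home cage, so both groups were water-restricted, and head fixation, the task and the reward were not separated from each other by the design. The labels do not state strain, sex, light cycle or the hour at which tissue was taken.

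The mammalian clock is a feedback loop. Arntl (also called Bmal1) and Clock encode partners that bind E-box DNA and switch on the Per and Cry genes, and the Per and Cry proteins then block Arntl and Clock. A further loop runs through Nr1d1 and Nr1d2, which encode the REV-ERB repressors of Arntl, and Dbp is a clock-driven output factor that binds D-box DNA. In most tissues Arntl transcript peaks in opposite phase to Nr1d1 and Dbp, and Per1 is also an immediate response gene that cAMP and glucocorticoid signalling can switch on within a cycle.

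The short DNA elements through which this loop is known to work were looked up in the RefSeq promoters of the genes, each running from 250 bases before to 50 bases after a start site (build GRCm38.p6). Of the 10 genes 9 had a promoter there, Per2 being the one without. The 4 promoters printed here belong to Per1, Nr1d1, Arntl and Dbp, and capitals mark a motif. The Per1 promoter at chr11:69098699-69098998 (plus strand) holds the E-box CACGTG. The Nr1d1 promoter at chr11:98775328-98775627 (minus strand) holds AACGTG, the reverse complement of the E-box variant CACGTT. The Arntl promoter at chr7:113207261-113207560 (plus strand) holds TAGGTCA, the element shared by the ROR activators and the REV-ERB repressors, while a further Arntl promoter, at chr7:113207215-113207514 and overlapping it, holds none. The Dbp promoter at chr7:45704997-45705296 (plus strand) holds none of the motifs searched.
Per1: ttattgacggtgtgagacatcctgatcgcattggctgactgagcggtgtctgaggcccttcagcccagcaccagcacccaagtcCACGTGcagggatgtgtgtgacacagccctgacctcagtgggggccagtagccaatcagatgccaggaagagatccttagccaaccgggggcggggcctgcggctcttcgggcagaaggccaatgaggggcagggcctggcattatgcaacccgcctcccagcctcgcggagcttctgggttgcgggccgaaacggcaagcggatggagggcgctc
Nr1d1: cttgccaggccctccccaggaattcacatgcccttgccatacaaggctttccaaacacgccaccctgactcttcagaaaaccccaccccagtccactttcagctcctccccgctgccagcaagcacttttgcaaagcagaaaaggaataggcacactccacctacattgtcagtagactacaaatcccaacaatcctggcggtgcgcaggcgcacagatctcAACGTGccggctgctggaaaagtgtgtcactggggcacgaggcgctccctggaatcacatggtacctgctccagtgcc
Arntl: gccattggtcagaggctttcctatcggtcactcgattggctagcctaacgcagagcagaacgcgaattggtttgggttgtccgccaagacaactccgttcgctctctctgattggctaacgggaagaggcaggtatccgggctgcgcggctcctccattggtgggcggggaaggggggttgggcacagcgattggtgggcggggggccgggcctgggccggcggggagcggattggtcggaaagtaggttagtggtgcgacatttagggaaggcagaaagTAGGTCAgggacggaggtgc
Dbp: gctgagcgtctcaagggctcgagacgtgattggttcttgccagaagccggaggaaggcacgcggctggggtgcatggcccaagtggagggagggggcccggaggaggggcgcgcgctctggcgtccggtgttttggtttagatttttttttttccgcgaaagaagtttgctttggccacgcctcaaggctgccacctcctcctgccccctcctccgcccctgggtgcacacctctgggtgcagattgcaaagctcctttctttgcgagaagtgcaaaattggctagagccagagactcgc

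On both strands, CACGTG was found in 7.15% of 32851 promoters, CACGTT in 4.68%, TAGGTCA in 2.61%, the D-box TTATGTAA in 0.938% and the cAMP element core TGACGT in 7.51%. Among the clock genes CACGTG was also found in Cry1, CACGTT in Cry1 and Cry2, TTATGTAA at 2 places in Per3 and TGACGT in another Per1 promoter. No motif searched overlapped another in the promoters printed. Clock and Nr1d2 held none of these letters within the windows. A match is a description of the sequence and not a bound site.

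The 6 mice gave 51926 nuclei with 46798359 to 91495029 UMIs (unique molecular identifiers, 1 for each captured transcript) per mouse, of which 49292 nuclei were kept. The median UMI count per nucleus was 6843, 5749 and 7205 in trained mice 2, 4 and 6, against 6874, 5215 and 5302 in control mice 1, 3 and 5, so that mice of both groups were among the deeper and the shallower libraries. Mitochondrial transcripts made up 0.0561%, 0.0248% and 0.0290% of UMIs in trained mice, against 0.0239%, 0.0183% and 0.0254% in control mice. A cluster of 427 nuclei that matched no marker list came almost wholly from trained mouse 6 (402 nuclei). In the main clustering it enters the sums over all nuclei but no named class. At the alternative Leiden resolution of 0.5, a cluster of 486 nuclei, 412 of them from trained mouse 6, was named microglia and macrophage. The microglia and macrophage sums of that alternative therefore hold these nuclei. Of 51613 distinct barcode sequences 311 occurred in more than 1 mouse. Nuclei were clustered without the clock genes, and a class name below means that the nuclei resemble that class by its markers. GABAergic nuclei had 22.2 ± 6.43 CPM of Slc17a7 and 399 ± 26.1 CPM of Gad2, and glutamatergic nuclei 249 ± 32.2 CPM of Slc17a7 and 3.39 ± 0.471 CPM of Gad2 (SD, n = 6 mice), where CPM is counts per 1000000 UMIs of the same class. In the sums over all nuclei, fewer nuclei of a type and less RNA per nucleus cannot be told apart.

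Per3, a period gene that binds the Cry proteins, had 0 UMIs in all 51926 nuclei. It lies on chromosome 4 at chr4:151003652-151044665 (minus strand), wholly inside Camta1 on the same strand, and Camta1 had 121430 UMIs. Of 417 protein-coding genes that lie wholly inside another gene of the same strand, 416 (99.8%) had no UMI in these files, against 2099 of the other 21480 protein-coding genes (9.77%). A listed 0 of such a gene is not read as absence of its transcript, and the comparisons below use the other 9 genes. These had 8149 (Cry1) to 42798 (Clock) UMIs over all nuclei. Nr1d1 overlaps Thra (52540 UMIs) on the opposite strand, Dbp overlaps Sphk2 (2145 UMIs), and Cry2 and Arntl overlap antisense genes. How the counting treated strand is not stated in the labels, so these overlapping pairs may not be told apart.

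Levels of the clock genes differed between cell classes. Astrocytes stood highest of 19 classes for Nr1d1, Nr1d2, Dbp and Cry2 and lowest for Clock. For Nr1d1, astrocytes averaged 65.1 ± 12.1 CPM (SD, n = 6 mice), against 33.1 ± 9.65 CPM in layer 4/5 intratelencephalic (IT) neurons, the next class, and 6.55 ± 2.37 CPM in Sst interneurons, the lowest. Cry2 averaged 141 ± 13.0 CPM in astrocytes, against 115 ± 5.87 CPM in cluster 8, a glutamatergic cluster without a class name, and 21.9 ± 18.9 CPM in endothelial nuclei (16 UMIs in all). For both genes the step from astrocytes to the next class was larger than the SD of either class. For Nr1d2, with 120 ± 9.03 CPM in astrocytes, and for Dbp, with 66.6 ± 16.6 CPM, the next class was pericytes and smooth muscle, at 99.4 ± 47.3 CPM for Nr1d2 and 57.6 ± 40.8 CPM for Dbp, and neither step exceeded the spread. Clock averaged 71.0 ± 8.82 CPM in astrocytes, below layer 2/3 IT neurons at 97.9 ± 5.74 CPM, a step larger than either SD.

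**Figure D1:**
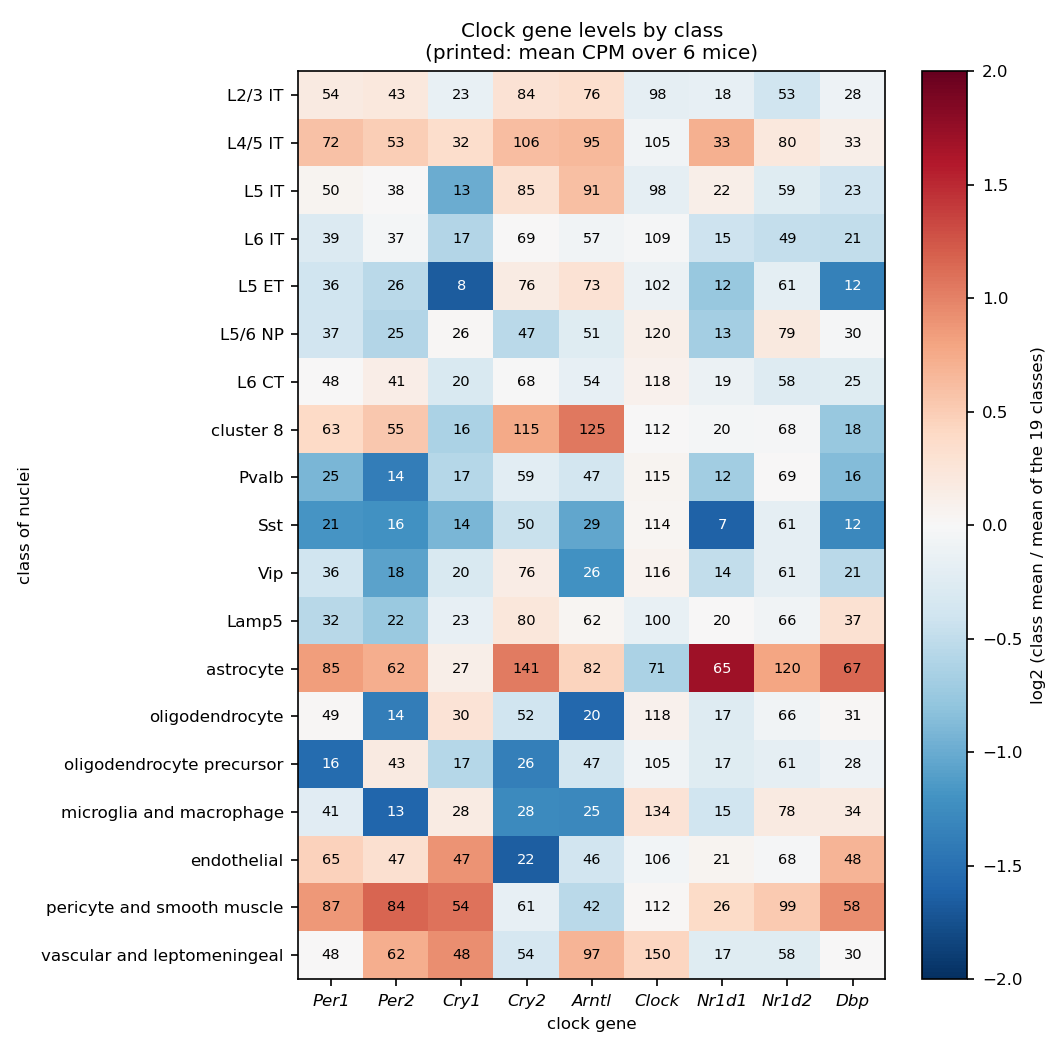
Levels of the 9 clock genes with UMIs in 19 cell classes, as CPM of all UMIs of the class (each cell prints the mean over 6 mice, and the colour gives its log2 ratio to the mean of the 19 classes). Astrocytes hold the highest mean for Nr1d1 (65.1 CPM), Nr1d2, Dbp and Cry2 and the lowest for Clock (71.0 CPM).

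The remaining genes had other orders. The transcription activator Arntl was highest in cluster 8 (125 ± 16.3 CPM) and lowest in oligodendrocytes (20.2 ± 10.4 CPM). Per1, Per2 and Cry1 were highest in pericytes and smooth muscle, at 86.6 ± 32 CPM, 84.1 ± 26.9 CPM and 53.6 ± 12.6 CPM, each from fewer than 100 UMIs, and Per1 in astrocytes (84.8 ± 15.2 CPM) did not differ from that beyond the spread. Per1 was lowest in oligodendrocyte precursors (16.4 ± 4.64 CPM), Per2 in microglia and macrophages (12.6 ± 7.31 CPM) and Cry1 in layer 5 extratelencephalic neurons (7.95 ± 2.04 CPM). The ratio of the highest to the lowest class mean was 9.93 for Nr1d1 and 2.11 for Clock, which had the widest and the narrowest range of the 9. Of the 18 steps between neighbouring classes, those larger than both SDs numbered 3 for Cry2, 2 for Nr1d1, 0 for Dbp and 1 for each of the other 6 genes, so most neighbouring classes did not differ beyond their spread.

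Each broad class was then tested against the glutamatergic neurons of the same mice (edgeR's quasi-likelihood test with mouse as a block, Benjamini-Hochberg adjustment over all genes, threshold 0.05). The glutamatergic class came first in size, with 24883 nuclei. Between classes most genes passed, and so a count of clock genes has to be read against that background. The scaling between classes moves such values, and each split is given also with total UMIs alone in place of the composition factor, an alternative chosen after seeing the data.

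Astrocytes carried more transcript of 7 clock genes and less of 1, out of 9, where 75.9% of all genes passed, 37.6% being higher and 38.3% lower. With total UMIs alone the split was again 7 higher and 1 lower. The repressor gene Nr1d1 was higher by 1.57 ± 0.102 on the log2 scale (log2 fold change ± SE; edgeR adjusted p = 8.08e-11), with 65.1 ± 12.1 CPM in astrocytes and 19.8 ± 6.06 CPM in glutamatergic neurons (SD, n = 6). The output factor Dbp was higher by 1.31 ± 0.081 (edgeR adjusted p = 4.06e-11), with 66.6 ± 16.6 CPM in astrocytes and 24.1 ± 7.22 CPM in glutamatergic neurons. Nr1d2 was higher by 0.80, Cry2 by 0.58, Per1 by 0.55, Per2 by 0.42 and Cry1 by 0.32. Clock was lower, with a log2 fold change of -0.75 ± 0.072 (edgeR adjusted p = 2.27e-08). Its partner Arntl did not pass, at -0.11 ± 0.074 (edgeR adjusted p = 0.170). The median over the 9 genes was 0.55, beside -0.01 over all genes tested.

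GABAergic neurons carried less of all 9 clock genes, where 70.1% of all genes passed, 37.8% higher and 32.3% lower. With total UMIs alone the split was 2 higher and 7 lower. Per2 had a log2 fold change of -1.51 ± 0.060, Arntl -1.17 ± 0.038 and Per1 -1.16 ± 0.045, with edgeR adjusted p of 7.96e-13, 4.98e-14 and 5.68e-13. Clock and Nr1d2, at -0.12 and -0.11, were nearest to 0, and they were the 2 that turned positive with total UMIs alone (0.09 each). The median over the 9 genes was -0.64, beside 0.04 over all genes tested. Within the interneurons the mean of Nr1d1 ran between 6.55 CPM in Sst and 20.3 CPM in Lamp5 nuclei.

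In oligodendrocytes 6 of 9 clock genes passed, 1 higher and 5 lower, where 78.3% of all genes passed, 36.4% higher and 41.9% lower (2 higher and 3 lower with total UMIs alone). Arntl (-2.20 ± 0.132) and Per2 (-1.85 ± 0.124) were the lowest, and Cry1 was higher by 0.33 ± 0.108. Oligodendrocyte precursors had 8 of 9 lower and 0 higher (64.5% of all genes passed, 28.9% higher and 35.5% lower), and 3 lower and 0 higher with total UMIs alone, with Per1 at -2.04 ± 0.155 and Cry2 at -2.03 ± 0.131. Microglia and macrophages had 7 of 9 lower and 0 higher (75.5% of all genes passed, 33.3% higher and 42.1% lower), and 5 lower and 4 higher with total UMIs alone, led by Per2 at -2.42 ± 0.187. Vascular nuclei had 6 lower and 1 higher (67% of all genes passed, 29.1% higher and 37.9% lower), and 1 lower and 3 higher with total UMIs alone, with Cry2 at -1.35 ± 0.127 and Cry1 at 0.57 ± 0.164.

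With total UMIs alone the median of all genes shifted upward by 0.20 in GABAergic neurons, 0.17 in astrocytes, 0.28 in oligodendrocytes, 0.38 in oligodendrocyte precursors, 0.71 in microglia and 0.68 in vascular nuclei. Arntl turned positive in astrocytes (0.06). Clock and Nr1d2 turned positive in oligodendrocytes, Per2 and Dbp in precursors, Cry1, Clock, Nr1d2 and Dbp in microglia, and Per1, Per2, Clock, Nr1d1 and Nr1d2 in vascular nuclei, so the direction of these genes is not fixed by the data. The change shifts all genes of a class by nearly the same amount, so values relative to the median of all genes are nearly the same under both by construction; Clock and Nr1d2 in GABAergic neurons were -0.16 each on that measure. Among the other called values named above, with total UMIs alone Cry2 was -0.67 and Cry1 1.252 in vascular nuclei and Cry1 was 0.61 in oligodendrocytes and 0.49 in astrocytes. With no filter Per2 and Cry1 in astrocytes were 0.27 and 0.17. With doublets kept Per2 was -1.36, Cry2 -1.29 and Arntl -1.45 in microglia and macrophages, Arntl was -1.40 and Per2 -1.21 in oligodendrocytes, Cry2 was -1.34 in precursors and Cry1 was 0.37 in vascular nuclei.

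Transcript of glutamatergic neurons in the other classes was gauged by 1 gene, and carry-over from astrocytes or other classes was not gauged. Slc17a7, the glutamatergic transporter, was measured at 25.3% of its glutamatergic level in astrocytes, 8.92% in GABAergic neurons, 23.2% in oligodendrocyte precursors, 38.6% in vascular nuclei, 40.0% in oligodendrocytes and 46.3% in microglia, classes that should lack it. Per2 and Arntl in oligodendrocytes, at 34.8% and 26.0% of their glutamatergic levels, lay below this, as did Per2 (30.5%), Cry2 (33.9%) and Arntl (31.5%) in microglia, and these 5 levels are not read as expression in those classes. Whether other transcripts carry over in the same share was not tested. Nr1d1 in astrocytes was at 328% and Dbp at 276% of their glutamatergic levels.

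The question put by the training design is whether clock genes change in cortex after 3 days of the lever task. No clock gene passed the threshold in any class. Over 23 sums of nuclei (all nuclei, broad classes and finer classes, some of which share nuclei), 192 tests of the 9 genes gave 0 with an adjusted p under 0.05 by edgeR's quasi-likelihood test and 0 by DESeq2, where 0.0121% of all gene tests passed. The smallest adjusted p was 0.302. At an unadjusted p under 0.05 there were 9 (4.69%, of which 1 higher and 8 lower), where 3.79% of all gene tests passed. The trained and control mice did not overlap in 20 tests (10.4%), where 9.11% of all gene tests did not. Both shares are near the background. The filter on low counts left out 15 further tests, all in finer vascular classes (9 in endothelial nuclei, 4 in pericytes and smooth muscle and 2 in leptomeningeal nuclei). The log2 fold change was above 0 in 59 of the 192 tests, with a median of -0.09. The share above 0 over all gene tests was not computed, and the sums share mice and nuclei. This count is therefore not read as a lowering of clock genes by training.

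In the sum over all nuclei the trained and control values of 8 of the 9 genes overlapped. Per1 was at 44.1, 59.4 and 43.5 CPM in trained mice 2, 4 and 6, against 40.6, 59.7 and 47.1 CPM in control mice 1, 3 and 5. The highest mouse of each group was near 60 CPM, and the difference of -0.0032 ± 0.167 (log2 fold change ± SE), whose sign turned with the scaling, was inside the spread. Nr1d1 was at 13.2, 23.1 and 20.3 CPM in trained mice, against 15.9, 29.0 and 23.6 CPM in control mice, with a log2 fold change of -0.28 ± 0.252. Dbp was at 15.0, 28.2 and 28.0 CPM in trained mice, against 23.2, 37.6 and 24.6 CPM in control mice, with -0.26 ± 0.265. The direction of both genes was not stable, since with the mitochondrial percent as a covariate Nr1d1 was 0.079 and Dbp 0.18, with depth as a covariate Nr1d1 was 0.048, and without control mouse 3 Dbp was 0.0028. Both groups spanned a wide range for these 2 genes, and neither difference exceeded it (edgeR adjusted p = 1.00 for each gene in all nuclei). Arntl, at 78.6, 67.8 and 56.6 CPM in trained mice and 77.2, 66.3 and 71.3 CPM in control mice, and Clock, at 105 to 111 CPM in trained mice and 102 to 109 CPM in control mice, overlapped as well. Per2, Cry1 and Nr1d2 had log2 fold changes of -0.04, -0.12 and -0.14.

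**Figure D2:**
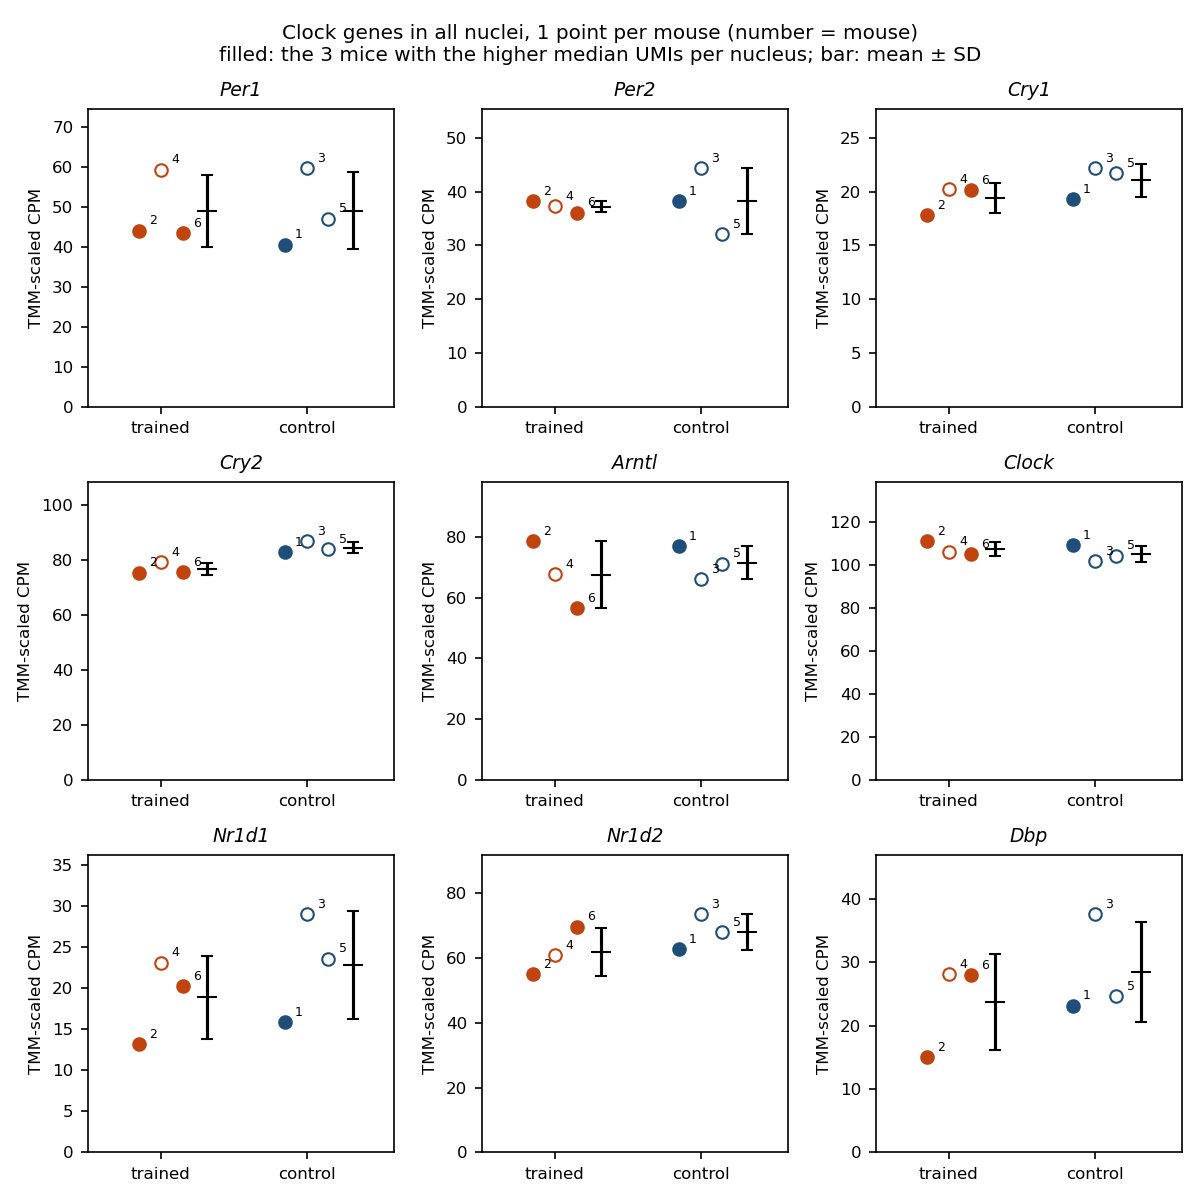
Levels of the 9 clock genes over all nuclei, as composition-scaled CPM, in the trained mice (left) and the control mice (right) of each panel; points are mice, filled for the 3 deeper ones, with the mean ± SD beside them. Only Cry2 has no overlap, with 75.4 to 79.4 CPM in trained mice and 82.8 to 86.9 CPM in control mice.

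Cry2, which encodes a cryptochrome repressor of Arntl and Clock, made up 9 of the 20 tests in which the groups did not overlap, lower in trained mice each time. Over all nuclei it was at 75.4, 79.4 and 75.6 CPM in trained mice, against 82.8, 86.9 and 84.0 CPM in control mice. The log2 fold change was -0.14 ± 0.064 (edgeR adjusted p = 1.00). In glutamatergic neurons it was at 75.9, 82.6 and 76.2 CPM in trained mice, against 86.9, 90.1 and 89.6 CPM in control mice. Every trained mouse was below every control mouse, and the log2 fold change was -0.18 ± 0.068 (edgeR adjusted p = 1.00, unadjusted p under 0.05). In this class 0% of all genes passed after adjustment, 3.4% had an unadjusted p under 0.05 and 8.82% did not overlap.

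Of the 8 glutamatergic clusters or classes fitted, the groups did not overlap for Cry2 in 6, with the trained mice lower in each; these sums share their nuclei with the glutamatergic sum and are no further evidence. In layer 4/5 IT neurons Cry2 was at 88.1, 103.9 and 91.9 CPM in trained mice, against 107.3, 119.9 and 123.1 CPM in control mice. The log2 fold change was -0.30 ± 0.108 there, -0.28 ± 0.109 in layer 5 IT neurons and -0.30 ± 0.111 in layer 6 IT neurons, and edgeR's adjusted p was 0.937 or above in all 3 (unadjusted p under 0.05 in each). In astrocytes Cry2 went the other way without a call, at 166.3, 134.4 and 158.7 CPM in trained mice and 129.4, 135.3 and 127.3 CPM in control mice (0.23 ± 0.125). The difference between the 2 training effects, astrocyte minus glutamatergic, was 0.38 ± 0.139 on the log2 scale (edgeR interaction adjusted p = 0.460).

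Per1 and Dbp differed in astrocytes without passing the adjusted threshold. Per1, a period gene and a response gene to acute signals, was at 99.5, 104.8 and 92.3 CPM in trained mice, against 66.7, 84.0 and 66.3 CPM in control mice. All 3 trained mice were above all 3 control mice, with means of 98.9 ± 6.29 CPM and 72.3 ± 10.1 CPM (SD, n = 3 each). The log2 fold change was 0.45 ± 0.137 (edgeR adjusted p = 0.302, unadjusted p under 0.05), and the adjusted p lay between 0.127 and 0.759 over the alternatives. Dbp was at 41.0, 65.3 and 63.3 CPM in trained mice, against 69.0, 88.9 and 73.7 CPM in control mice, again without overlap but with trained mice lower. Its log2 fold change was -0.47 ± 0.176 (edgeR adjusted p = 0.465, unadjusted p under 0.05), and it was -0.27 without trained mouse 2 and -0.15 with the mitochondrial percent as a covariate. Among all genes in astrocytes 0.195% passed after adjustment, 8.33% had an unadjusted p under 0.05 and 13.8% did not overlap, shares higher than those over all 23 sums, and the 2 of 9 clock genes are read against them.

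In the astrocyte sums the mitochondrial share was higher in every trained mouse than in every control mouse. Median UMIs per astrocyte nucleus overlapped, at 3277, 2397 and 3063.5 in trained mice, against 3020, 2451 and 2741 in control mice. Mitochondrial transcripts were 0.119%, 0.0928% and 0.0788% of astrocyte UMIs in trained mice, against 0.0691%, 0.0579% and 0.0724% in control mice, and their part in these results was not tested beyond the covariate. Within the deeper mice (trained 2 and 6, control 1) the Per1 difference was 0.52 and within the shallower mice (trained 4, control 3 and 5) it was 0.48, and it was 0.49 with the mitochondrial percent as a covariate. For Dbp the deeper and shallower values were -0.40 and -0.32. They were farther apart for Cry2 (0.33 and 0.03), Per2 (0.37 and -0.11) and the clock-linked gene Usp2 (1.02 and 0.57). Arntl, Clock and Nr1d2 also changed sign between them. Each such value rests on 1 mouse in 1 of the groups, so the part of depth was not tested by this split. Apart from Per1 and Dbp, the members in astrocytes all overlapped, with Cry1 at -0.40 ± 0.195, Nr1d1 at -0.21 ± 0.159, Arntl at 0.11, Per2 at 0.06, Nr1d2 at 0.05 and Clock at 0.00.

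**Figure D3:**
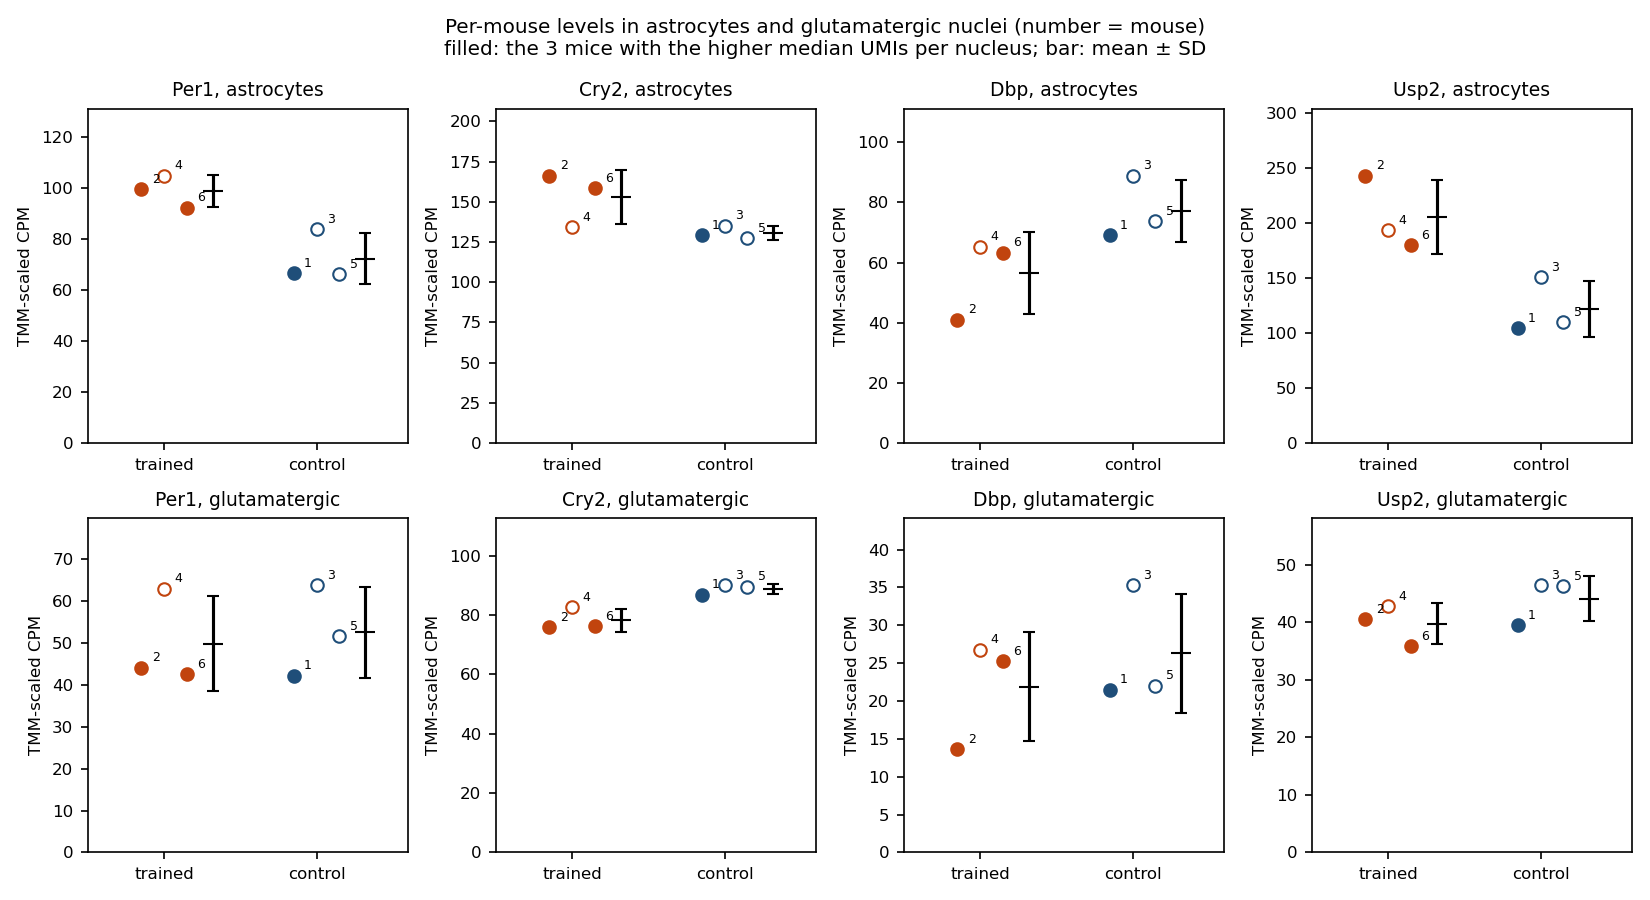
Per1, Cry2, Dbp and the clock-linked gene Usp2 in astrocytes and in glutamatergic neurons, as composition-scaled CPM, with the trained mice left of the control mice (points are mice, filled for the 3 deeper ones, with the mean ± SD beside them). Per1 in astrocytes lies at 92.3 to 104.8 CPM in trained mice and 66.3 to 84.0 CPM in control mice, while in glutamatergic neurons the groups overlap.

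In glutamatergic neurons Per1 was at 44.2, 63.0 and 42.6 CPM in trained mice and 42.2, 63.9 and 51.7 CPM in control mice, which overlap. The difference between its training effects in the 2 classes was 0.50 ± 0.150 on the log2 scale (edgeR interaction adjusted p = 0.272). No clock gene passed this interaction test in astrocytes, GABAergic neurons or oligodendrocytes by edgeR or DESeq2, where 0.173%, 0% and 0.00592% of all genes passed by edgeR. At an unadjusted p under 0.05 there were Per1 and Cry2 in astrocytes and Clock in oligodendrocytes (-0.37 ± 0.145, adjusted p = 0.720).

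The remaining tests with an unadjusted p under 0.05 were of single genes in finer classes. Arntl in layer 5 IT neurons was at 89.5, 83.8 and 76.3 CPM in trained mice, against 108.2, 95.5 and 94.1 CPM in control mice (-0.25 ± 0.100, edgeR adjusted p = 0.937). Clock in Lamp5 interneurons was at 96.5, 81.3 and 95.2 CPM in trained mice, against 117.9, 103.7 and 117.2 CPM in control mice (-0.31 ± 0.147, edgeR adjusted p = 0.999). Both were lower in every trained mouse. Nr1d1 in oligodendrocyte precursors rested on 78 UMIs in 6 mice and its groups overlapped (-0.97 ± 0.441, edgeR adjusted p = 0.999).

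In the other broad classes no clock gene had an unadjusted p under 0.05 outside precursors. In GABAergic neurons Nr1d1 was at 7.05, 11.8 and 11.7 CPM in trained mice, against 11.5, 15.8 and 13.2 CPM in control mice (-0.41 ± 0.216). Only control mouse 1 kept the groups from separating there. In oligodendrocytes Clock was at 120.1, 98.1 and 108.5 CPM in trained mice, against 129.6, 134.4 and 123.3 CPM in control mice, with no overlap (-0.24 ± 0.141, edgeR adjusted p = 0.987). Per1 in oligodendrocytes was at 60.8, 55.7 and 46.0 CPM in trained mice, against 41.3, 49.7 and 40.7 CPM in control mice, which overlap (0.31 ± 0.169, edgeR adjusted p = 0.987).

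Genes of the clock outside the 10 were counted from a list of 22 regulators, kinases and ubiquitin enzymes. In trained against control mice, 409 tests gave 0 past the adjusted threshold by edgeR and 15 at an unadjusted p under 0.05 (8 higher, 7 lower), beside 0.0121% and 3.79% of all gene tests, and DESeq2 called 1, Usp2 in astrocytes. The 15 are 3.67% of the tests, near the background. Usp2 encodes a ubiquitin protease whose transcript cycles in many tissues and which acts on clock proteins. It was at 243.3, 193.7 and 179.8 CPM in astrocytes of trained mice, against 104.2, 151.0 and 110.2 CPM in astrocytes of control mice. The groups did not overlap, and the log2 fold change was 0.76 ± 0.160 (edgeR adjusted p = 0.0774, DESeq2 adjusted p = 0.00879). Over 15 alternatives the adjusted p ran from 0.000102 with no filter to 0.475 with the mitochondrial percent as a covariate, and 3 passed: DESeq2, no filter and leaving out control mouse 3 (0.95, adjusted p = 0.0296). In glutamatergic neurons it was at 40.6, 42.8 and 35.8 CPM in trained mice, against 39.6, 46.5 and 46.4 CPM in control mice. The difference of the training effects, astrocyte minus glutamatergic, was 0.88 ± 0.149 (edgeR interaction adjusted p = 0.00652), and without trained mouse 2 it was 0.75 with an adjusted p of 0.0756.

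Between classes, 19 of the 22 other clock genes passed in astrocytes against glutamatergic neurons, 14 higher and 5 lower (edgeR), where 75.9% of all genes passed, 37.6% higher and 38.3% lower. Scaled by total UMIs alone, all 22 passed, 17 higher and 5 lower. Rora encodes an activator that competes with REV-ERB proteins at the element in the Arntl promoter, and it was higher by 1.73 ± 0.088 on the log2 scale. The D-box factors Tef and Hlf, relatives of Dbp, were higher by 0.78 and 0.76, and their opponent Nfil3 was lower, with a log2 fold change of -1.88 ± 0.315. Arntl2, Btrc, Timeless and Csnk1e were the other genes that passed as lower, and Bhlhe41, Cipc and Bhlhe40 were among the higher ones. Npas2, which can stand in for Clock, was higher by 0.53. In GABAergic neurons 20 of 21 of these genes passed, 3 higher and 17 lower, where 70.1% of all genes passed, 37.8% higher and 32.3% lower. Scaled by total UMIs alone, 16 passed, 3 higher and 13 lower.

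The activity and stress response genes that share inputs with Per1 were set beside it. In astrocytes Fos was at 54.5, 82.0 and 42.2 CPM in trained mice, against 19.1, 27.7 and 38.1 CPM in control mice (1.09 ± 0.249, edgeR adjusted p = 0.118). Nr4a1 was at 50.6, 37.4 and 27.9 CPM in trained mice, against 11.8, 22.3 and 16.2 CPM in control mice (1.21 ± 0.243, edgeR adjusted p = 0.0611). The astrocyte level of Nr4a1 was 0.22 times its glutamatergic level with TMM scaling, near the 25.3% of Slc17a7 in astrocytes. The part of carried-over transcript in the Nr4a1 values was not tested. Fkbp5, a glucocorticoid target, was at 114.0, 178.7 and 319.0 CPM in trained mice, against 83.7, 140.4 and 20.4 CPM in control mice (1.29 ± 0.450, edgeR adjusted p = 0.411). Fos and Nr4a1 did not overlap between the groups and Fkbp5 did. Whether Fos and Nr4a1 passed depended on the setting, with an adjusted p from 5.9e-07 with no filter to 0.425 without control mouse 1 for Fos and from 4.4e-07 with no filter to 0.475 with the mitochondrial percent for Nr4a1. Both passed with DESeq2, Fos also with depth as a covariate or the deeper mice as a block, and Nr4a1 also without control mouse 3. Over all nuclei it was Fkbp5 whose groups did not overlap, at 71.3, 98.6 and 126.4 CPM in trained mice, against 57.1, 71.0 and 32.4 CPM in control mice (0.88 ± 0.289, edgeR adjusted p = 1.00), and trained mice were also above control mice in glutamatergic (0.84 ± 0.212) and GABAergic neurons (0.74 ± 0.219), where the groups overlapped for Fos. Per1 overlapped in these 3 sums. In none of these sums did any gene pass after adjustment (edgeR, smallest adjusted p over all genes 0.999797 or above in each). The part of Fos, Nr4a1 and Fkbp5 in the Per1 values was not tested.

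Single mice differed in the clock genes in the same way across many classes, in both groups. Dbp was lowest in trained mouse 2 in 15 of the 16 classes with enough counts and highest in control mouse 3 in 12 of 16. Nr1d1 was lowest in trained mouse 2 in 11 of 16 classes and highest in control mouse 3 in 11 of 16. Nr1d2 followed, with trained mouse 2 lowest in 13 of 18 classes. Arntl, which peaks in opposite phase in most tissues, was highest in trained mouse 2 in 11 of 17 classes and lowest in trained mouse 6 in 10 of 17. Clock, its partner, was likewise highest in trained mouse 2 in 10 of 18 classes. Per2 was highest in control mouse 3 and lowest in control mouse 5, each in 11 of 18. For Per1, Cry1 and Cry2 no mouse was highest or lowest in more than 9 classes. How often genes outside the clock follow the same mice was not counted. The median deviation of Dbp from the mean of the mice over classes was -0.66 on the log2 scale in trained mouse 2 and 0.45 in control mouse 3, against a trained minus control difference of -0.26 over all nuclei. Classes of 1 mouse share a library, so these counts describe 6 mice and not 16 samples.

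**Figure D4:**
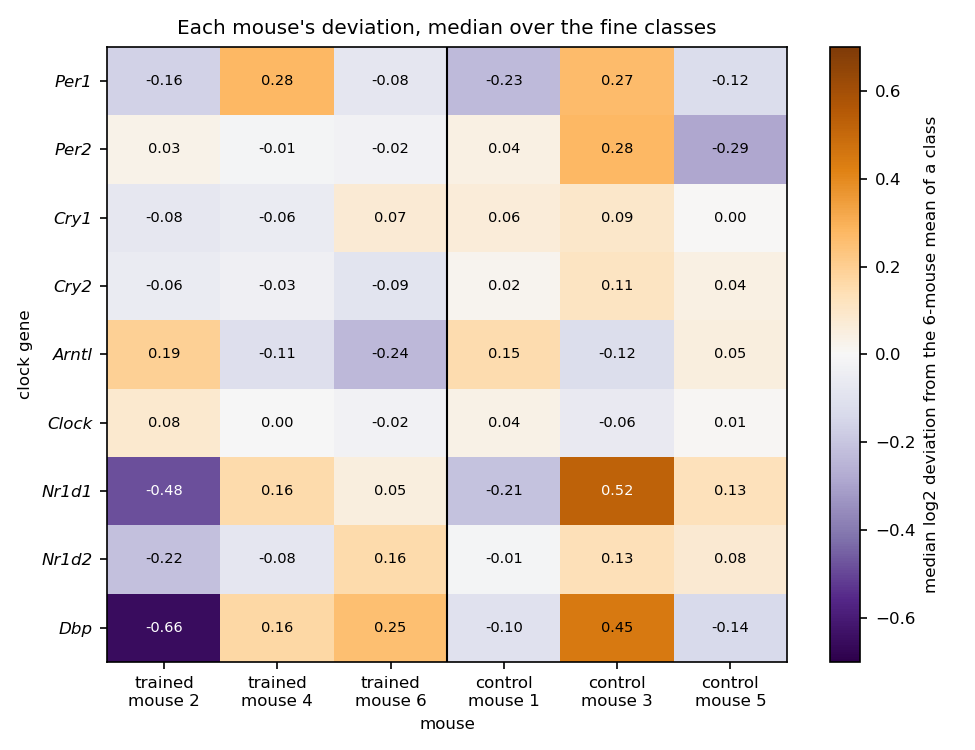
Median over the finer classes of each mouse's log2 deviation from the mean of the 6 mice, for 9 clock genes (down the page) and the trained and then the control mice (across). Dbp prints -0.66 in trained mouse 2 and 0.45 in control mouse 3.

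Across the 6 mice, Dbp and Nr1d1 over all nuclei had a Pearson r of 0.91 (exact permutation p = 0.0153, adjusted p = 0.0917 over 6 pairs) and a Spearman rho of 0.83 (exact permutation p = 0.0583, adjusted p = 0.175). Without mice 2 and 3, farthest from the median of Dbp, r was 0.58, so the relation rests in part on these mice. Dbp and Arntl had an r of -0.64 (exact permutation p = 0.158, adjusted p = 0.344) and a rho of -0.83 (exact permutation p = 0.0583), and r was -0.81 without mice 2 and 3. Nr1d1 and Arntl had an r of -0.55 (exact permutation p = 0.258) and a rho of -0.60, and r turned to 0.54 without mice 1 and 2. Per1 and Per2 had an r of 0.43, which turned to -0.83 without mice 3 and 4, Per1 and Fos had 0.64 and Per1 and Fkbp5 0.17, and none of the 6 pairs passed after adjustment. The 3 deeper mice had 40.6 to 44.1 CPM of Per1 over all nuclei and the 3 shallower mice 47.1 to 59.7 CPM, and likewise 13.2 to 20.3 CPM and 23.1 to 29.0 CPM of Nr1d1. Depth groups of 3 mice are too small for a correlation within them. The part of the hour of collection in the differences between mice was not tested.

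Over 114 sums (19 classes of 6 mice) and 10669 genes, the genes most like Dbp once class means were removed were Bex2 (r = 0.66), Ndufa6, Ttc9b, Nr1d1 and Ppia (0.64 each), and Arntl ranked 10631 with r = -0.46. The genes most like Per1 were Gnl3l (0.66), Syp (0.65), Eno2 (0.62), Tmem145 (0.61) and Rnf126 (0.59). For Arntl they included Bmpr1a and Phldb1 (0.77 each) and Brap and Slc12a2 (0.76 each). These r values are a description, since sums of 1 mouse share a library and its depth.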

How the data were processed

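Nuclei of 6 mice (3 trained, 3 control) were measured by droplet 3' RNA sequencing. Per the submitters' processing notes the reads were processed with Cell Ranger 4.0.0 on build mm10, and the authors deposited UMI counts per gene and nucleus, with each mouse's shallow and deep runs joined, which count as 1 replicate. The labels do not state whether intronic reads were counted. The barcode suffix gave the mouse. Nuclei with under 500 genes or 5% or more mitochondrial UMIs were left out (243), as were 2391 doublets marked by scrublet. Clustering used scanpy 1.11.5 (30 components, 20 neighbours, Leiden resolution 1.0), leaving out the clock, activity and stress genes, and clusters were named from marker lists. UMI counts were summed per mouse and class, which needed at least 20 nuclei per mouse.

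Sums were tested with edgeR 4.0.16 in R 4.3.3 (TMM scaling, filterByExpr, quasi-likelihood test, Benjamini-Hochberg adjustment over all genes of a sum, threshold 0.05), and with DESeq2 1.42.0 as an alternative. Class tests and interaction tests had mouse as a block. CPM printed for training comparisons are TMM-scaled, and class levels are per 1000000 UMIs of the class. Low-count genes were left out of a sum by the filter, which is why 192 tests and not 9 for each sum were made. A single gene tested by exact permutation of 3 against 3 mice cannot go below p = 0.1, so training effects were tested only in the fits across all genes. The replicates are separate mice. The methods were tested on simulated counts, with changes larger than the training differences of the clock genes in all nuclei, glutamatergic neurons and astrocytes. That test does not show whether differences as small as these can be found.

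The members and gene lists were chosen with earlier results of these data known. Genes are named by a rule, which takes the 10 members and the genes most alike by correlation. It also takes other clock genes, with values where they had an unadjusted p under 0.05 in all nuclei, glutamatergic neurons or astrocytes. Rora, Tef, Hlf, Nfil3, Npas2, Arntl2, Btrc, Timeless, Csnk1e, Bhlhe41, Cipc and Bhlhe40 were named after their values were seen. Of these only Rora, Tef, Hlf, Nfil3 and Npas2 are given with values, and the others by direction in astrocytes alone. Alternatives were RLE scaling, total UMIs alone, no filter, covariates for depth and mitochondrial percent, a block of deeper mice, doublets kept, Leiden resolution 0.5 and leaving out each mouse. Promoters are from RefSeq. Some genes that the rule would name are not reported here.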

Additional observations from a re-analysis of the deposited data

Results flagged for a closer look

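In the test of whether the training difference differs between astrocytes and glutamatergic neurons (edgeR interaction term, Benjamini-Hochberg adjustment over 17328 genes), 30 genes passed (0.173%, 22 higher and 8 lower), none of them among the 9 clock genes. Of the 22 other clock genes and the activity and stress genes set beside them, 3 were among the 30. For Usp2 the training difference in astrocytes minus that in glutamatergic neurons was 0.88 ± 0.149 on the log2 scale (edgeR adjusted p = 0.00652), and it was 0.75 with an adjusted p of 0.0756 without trained mouse 2. For Fos it was 1.23 ± 0.197 (edgeR adjusted p = 0.00412), with all 3 trained mice above all 3 control mice in astrocytes. For Nr4a1 it was 1.27 ± 0.217 (edgeR adjusted p = 0.00652), and it was 0.99 with an adjusted p of 0.113 without trained mouse 2 and 0.79 with an adjusted p of 0.106 with doublets kept. Nr4a1 in astrocytes was at 0.22 times its glutamatergic level with TMM scaling, near the share of Slc17a7 carried over (25.3%), and the part of carry-over was not tested.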

How the results depend on the processing

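No clock gene passed the adjusted threshold in trained against control mice or in the interaction test under any alternative run. Of 33 training differences followed through the alternatives 18 kept their direction in all of them, and of 54 class differences 36 did. The count of clock genes past the threshold against glutamatergic neurons became 3 in oligodendrocyte precursors and 4 in vascular nuclei with total UMIs alone, an alternative chosen after seeing the data, and was 4 to 7 in vascular nuclei when 1 mouse was left out, with 4 without trained mouse 4. The number of gene tests past the threshold for training over all sums was 31, against 135 with DESeq2, 701 with no filter, 61 with depth as a covariate, 135 with mitochondrial percent as a covariate, 65 with the deeper mice blocked, 19 with doublets kept, 20 at Leiden resolution 0.5 and 5 (control mouse 5 left out) to 95 (trained mouse 4 left out) with 1 mouse fewer. In astrocytes it was 24, against 58 with DESeq2, 231 with no filter, 14 with depth as a covariate, 8 with mitochondrial percent, 14 with doublets kept, and 3 to 74 when 1 mouse was left out. The interaction test in astrocytes called 30 genes, 50 with RLE scaling and 169 with no filter.

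These training differences changed sign, none of them called. Per1 over all nuclei was 0.0014 with DESeq2, 0.0016 with RLE scaling, 0.22 with depth as a covariate, 0.16 with mitochondrial percent, 0.13 with a block of deeper mice and 0.0089 with doublets kept. Per1 in glutamatergic neurons was 0.19 with depth, 0.11 with mitochondrial percent and 0.081 with the block. With mitochondrial percent, chosen after seeing the data like the block, Cry1 in glutamatergic neurons was 0.0041, Arntl in astrocytes -0.12, Clock over all nuclei -0.0065 and in astrocytes -0.14, Nr1d1 over all nuclei 0.079 and in glutamatergic neurons 0.15, and Dbp 0.18 and 0.19 in those sums. With depth Nr1d1 was 0.048 over all nuclei and 0.11 in glutamatergic neurons. Clock in astrocytes was -0.0015 with DESeq2, -7.8e-05 with RLE scaling, -0.055 with total UMIs, -0.013 with no filter and -0.0028 with the block, and with total UMIs Per2 and Nr1d2 there were -0.0023 and -0.0083. Leaving out 1 mouse, Per1 ran between -0.16 and 0.18 over all nuclei and -0.28 and 0.091 in glutamatergic neurons, and Per2 between -0.15 and 0.092, -0.11 and 0.067 there and -0.066 and 0.30 in astrocytes. Arntl ran between -0.20 and 0.034 over all nuclei and -0.056 and 0.21 in astrocytes, Clock between -0.12 and 0.11 and Nr1d2 between -0.050 and 0.11 in astrocytes, and Dbp between -0.40 and 0.0028 over all nuclei and -0.44 and 0.0077 in glutamatergic neurons.

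Of the class differences, total UMIs alone gave Clock 0.086 and Nr1d2 0.089 in GABAergic neurons, Arntl 0.060 in astrocytes, Clock 0.16 and Nr1d2 0.078 in oligodendrocytes, Per2 0.058 and Dbp 0.13 in precursors, Cry1 0.53, Clock 0.36, Nr1d2 0.28 and Dbp 0.50 in microglia, and Per1 0.32, Per2 0.65, Clock 0.24, Nr1d1 0.013 and Nr1d2 0.23 in vascular nuclei. Dbp in oligodendrocytes was -0.0054 with DESeq2, -0.016 with RLE scaling and -0.049 with no filter, and in vascular nuclei -0.0025 with no filter, -0.15 with doublets kept and -0.098 at resolution 0.5. Without 1 mouse, Per2 in vascular nuclei ran between -0.20 and 0.054 and Dbp between -0.050 and 0.24. Without the 2 mice farthest from the median, r was 0.54 for Nr1d1 and Arntl, -0.83 for Per1 and Per2 and -0.43 for Per1 and Fkbp5, and Per1 and Fkbp5 gave -0.062 over glutamatergic sums. Beyond the construction of total UMIs alone, which drops the composition factor, the cause of these changes was not tested.

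No paired analysis was possible because trained and control mice share no replicate number. Depth limits the rarer classes: Per1, Per2 and Cry1 in pericytes and Nr1d1 in precursors each rest on fewer than 100 UMIs. With 3 mice a group, whether a difference within the spread between mice can be found was not tested.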
